A study of Mus musculus with 6 samples.

Results

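The baseline transcriptome of MC38 cells carrying a control short hairpin RNA is described from 3 RNA-seq libraries, shControl 1 to 3, of the 6 in the series. Levels cover the 22383 protein_coding and lncRNA genes among the 22386 genes of the deposited table. No comparison with the other 3 libraries, which carry a short hairpin RNA against Acsl4, is made. MC38 cells come from a mouse colorectal tumour and are labelled as colorectal cancer cells of WT genotype. The series' design text speaks of a knockout, whereas the sample names give hairpins. The cells were kept in DMEM with 10% fetal bovine serum and antibiotics, and no further treatment of the control cells is given. The vector and sequence of the hairpin, and whether the hairpin cells were a pool or a single clone, are not given in the sources used here. Nothing states that the 3 libraries came from separate cultures, so every SD below measures only the spread between these libraries. Total RNA depleted of ribosomal RNA was read with random hexamer priming, and libraries held 41813345, 40911698 and 42058293 counts. By counting error alone, a value of 0 in a library allows for as many as 3 counts, which is 0.0713 to 0.0733 counts-per-million (CPM).

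Colorectal cancers arise from the epithelium of the large intestine, whose cells hold together through E-cadherin and tight junctions, carry simple keratins, and depend on the transcription factors Cdx1, Cdx2 and Hnf4a. Cells that lose this programme can take up the genes of mesenchymal cells, such as vimentin, fibronectin and fibrillar collagens. The transcription factors Snai1, Snai2, Zeb1 and Zeb2 repress epithelial genes by binding E-boxes in their promoters.

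Levels between genes are compared in the authors' FPKM, which divide counts by gene length and library total. A gene counts as expressed at 1 FPKM or more in all 3 libraries. By that rule 9897 of 16948 listed protein_coding genes (58.4%) were expressed, against 410 of 5435 lncRNA genes (7.54%). The lists below are read beside that 58.4%.

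Epithelial genes were close to silent. Of 32 genes of epithelial identity, 27 were listed in the table, and 1 of these (3.70%) was expressed. The median member stood at 0.0324 FPKM, against 2.94 FPKM for all listed protein_coding genes. The expressed member was Pkp3, which encodes a desmosomal plakophilin, at 1.98, 1.501 and 1.65 FPKM in shControl 1, 2 and 3.

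The defining markers Cdh1, Krt8 and Krt18 were lower than Pkp3, although Krt8 lay above the median of the list. Cdh1, the E-cadherin gene (ENSMUSG00000000303, GRCm39 chromosome 8, 107329983 to 107396878), had 4, 0 and 0 counts. Krt8 (chromosome 15, 101905133 to 101912917) had 25, 31 and 35 counts, or 0.305, 0.387 and 0.425 FPKM. Its partner keratin Krt18 (chromosome 15, 101936615 to 101940462) had 2, 0 and 0 counts. No library stood apart from the others, and Krt8 was the only one of these 3 markers with counts in every library. Cldn3, a claudin of tight junctions, and Ehf, an epithelial ETS transcription factor, had 0 counts in all 3 libraries. The splicing regulators Esrp1 and Esrp2 stood at mean levels of 0.0216 and 0.00367 FPKM, and the epithelial transcription factors Grhl1 and Grhl2 at 0.369 and 0.183 FPKM.

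Epcam, Ovol2, Ap1m2 and Marveld3 were not listed in the table used here, whose genes all had at least 2 counts over its 6 libraries. The denominator of the authors' FPKM could be worked back from the most abundant genes and exceeded the listed counts by 106, 112 and 109 counts per library. If that denominator is the total over all counted genes, no gene outside the list can hold more counts than these.

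Mesenchymal genes were expressed at a share near that of protein_coding genes at large. All 31 members of that list were in the table, and 20 (64.5%, against 58.4%) were expressed, with a median of 5.52 FPKM over the list. Vim, which encodes the intermediate filament vimentin (ENSMUSG00000026728, chromosome 2, 13578738 to 13587637), stood at 610, 634 and 584 FPKM. Col3a1, a fibrillar collagen chain (chromosome 1, 45350698 to 45388866), stood at 88.7, 96.0 and 79.3 FPKM, and Fn1, fibronectin, at 74.1, 78.5 and 89.2 FPKM. The ranges of Col3a1 and Fn1 overlapped, so their order is not set by these libraries, whereas Vim lay far above both in each library. The matrix protein gene Sparc followed at 70.4, 75.6 and 77.8 FPKM and the actin-binding caldesmon gene Cald1 at 48.5, 46.6 and 55.7 FPKM.

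The repressors Snai1, Snai2, Zeb1 and Zeb2 were all expressed, as were other mesenchymal transcription factors. Of these Snai1 was the highest at 24.9, 26.2 and 34.0 FPKM, and its shControl 3 value lay above the others. Twist1 stood at 19.99, 23.1 and 23.7 FPKM and Prrx1 at 9.97, 10.7 and 11.9 FPKM. Zeb1 stood at 9.24, 9.08 and 10.2 FPKM, overlapping with Prrx1. Snai2 (5.70 ± 0.877 FPKM, SD, n = 3) and the N-cadherin gene Cdh2 (5.52 ± 0.475) also overlapped, and Zeb2 (4.01 ± 0.440) and Twist2 (3.56 ± 0.361) were the lowest of these factors. Of the 20 expressed members, 16 were highest in shControl 3 after scaling for library size, against 4808 of all 11766 genes of at least 1 CPM.

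The mesenchymal list was divided. Its other 11 members lay below 1 FPKM, each with a mean of 0.131 FPKM or less. These were the contractile genes Acta2, Tagln and Cnn1, the collagen I chains Col1a1 and Col1a2, the surface proteins Thy1 and Fap, and Lox, Postn, Tgfbi and Cdh11. Col1a1, the most abundant collagen of most fibroblasts, had 19, 9 and 4 counts (0.0692, 0.0335 and 0.0145 FPKM), while Col3a1 had 36419, 38542 and 32718 counts.

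Among 42 listed collagen genes 11 were expressed: Col3a1, Col6a3 (41.7 FPKM), Col16a1 (35.9), Col6a1 (30.5), Col5a1 (25.7), Col4a1 (23.6), Col4a2 (17.5), Col7a1 (11.8), Col8a1, Col5a2 and Col6a2. These span the basement membrane, fibrillar and microfibrillar types, but not collagen I. In the fibroblast list 5 of 14 listed members were expressed. They were the proteoglycan gene Dcn (110, 109 and 123 FPKM), Col3a1, the actin-severing gelsolin gene Gsn (17.4 FPKM), Dpt (14.7) and the PDGF receptor gene Pdgfra (12.2), with Tcf21 at 0 counts.

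**Figure D1:**
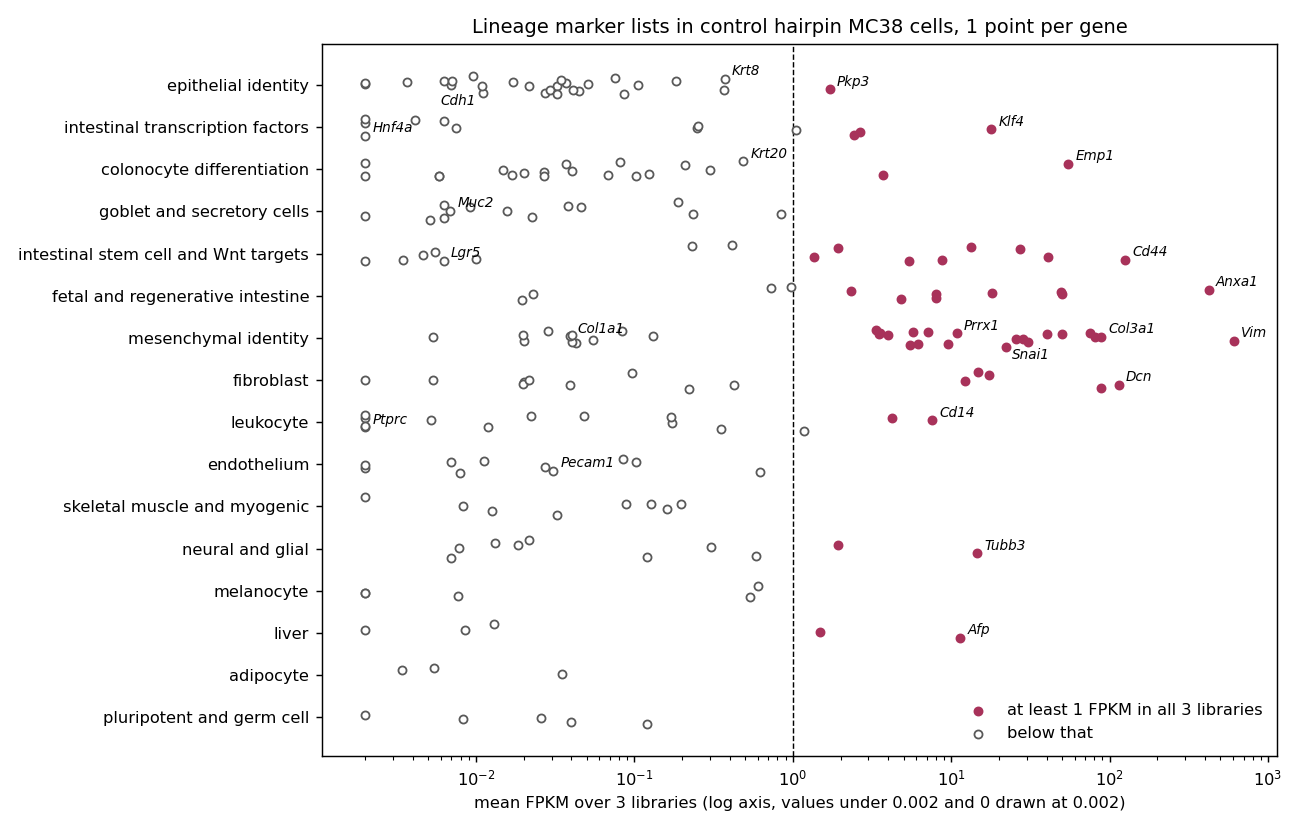
Mean FPKM over 3 control libraries (log axis) for each listed member of 16 lineage marker lists, 1 point per gene, filled where the gene had at least 1 FPKM in every library (dashed line at 1). The mesenchymal list runs up to Vim at 609 FPKM with 20 filled points, and the epithelial list has 1, Pkp3.

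Intestinal identity genes were mostly absent. Of 14 intestinal transcription factors 12 were listed and 3 were expressed (25.0%). Klf4, a Krüppel-like factor of differentiating epithelium that other tissues also use, was the highest at 17.1, 17.8 and 18.8 FPKM. Its relative Klf5, a factor of crypt cells, stood at 2.06, 2.29 and 2.99 FPKM, below Klf4 in every library. Cdx1, Hnf4a and Isx had 0 counts in all 3 libraries, and Cdx2 was not listed in the table. Gata6 reached 1.02, 0.781 and 1.32 FPKM and so missed the rule in shControl 2.

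Genes of mature colonocytes and of secretory cells gave the same picture. Of 20 listed colonocyte genes 2 were expressed, the membrane protein gene Emp1 (54.9 ± 1.67 FPKM) and the sulfate transporter gene Slc26a2 (3.73 ± 0.410), and neither is particular to the colon. Krt20 had 46, 34 and 37 counts (0.571, 0.431 and 0.456 FPKM) and Vil1, the microvillus protein villin, had 6, 0 and 6 counts. Muc13, a membrane mucin, and Slc26a3, the colonic chloride exchanger, had 0 counts. None of 13 listed goblet and secretory cell genes was expressed: Muc2, the goblet cell mucin, had 6, 2 and 4 counts, and the highest member was the tuft cell kinase gene Dclk1 at 0.842 FPKM.

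Stem cell and Wnt target genes were divided. Of 16 listed members 8 were expressed, led by Cd44, a hyaluronan receptor, at 117, 122 and 138 FPKM. Lrig1 followed at 39.8, 41.2 and 42.0 FPKM, Sox9 at 23.4, 26.9 and 31.1 FPKM, Tcf7 at 12.7, 13.2 and 14.1 FPKM and Lgr4 at 8.58, 8.76 and 8.99 FPKM. No neighbours among the 8 overlapped, so the order held in every library. Lgr5, the receptor that marks crypt base stem cells, had 4, 2 and 2 counts, Notum had 0, and Axin2, a direct Wnt target in many tissues, stood at 0.411 ± 0.0207 FPKM.

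In the list for fetal and regenerating intestine 8 of 12 listed members were expressed (66.7%), a share near the 58.4% of all protein_coding genes. Anxa1, which encodes a phospholipid-binding annexin, stood at 456, 447 and 361 FPKM, with shControl 3 the lowest. Anxa3 (54.4, 47.3 and 48.8 FPKM) and Ly6e (47.9, 47.4 and 52.6 FPKM) overlapped. Ly6a, which encodes the Sca-1 surface antigen, stood at 21.3, 17.8 and 15.3 FPKM, and the EGF family ligand gene Ereg at 7.94, 8.02 and 8.11 FPKM. Mesenchymal and other tissues also use several of these genes.

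Markers of other cell types were at or near 0. Ptprc, the CD45 gene of all leukocytes, had 2, 0 and 0 counts, and Laptm5, Cd3e and Cd8a had 0. The 2 expressed leukocyte list members were Cd14, a lipopolysaccharide co-receptor (7.59 ± 1.096 FPKM), and the lysosomal protein gene Cd68 (4.22 ± 0.968). None of 10 endothelial markers was expressed, with Pecam1 at 8, 6 and 10 counts, and none of the listed muscle, melanocyte, adipocyte or germ cell markers was.

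The neural list had Tubb3 (14.6 ± 1.13 FPKM) and Nes (1.94 ± 0.212), which encode a tubulin and an intermediate filament. The liver list had Afp, alpha-fetoprotein, at 12.8, 12.1 and 9.15 FPKM and Apoa2 at a mean of 1.49 FPKM from 26 to 40 counts, with Alb at 0 counts. The labelled cell type was therefore not borne out by epithelial or colonic markers in these libraries, and no other cell type is assigned to the cells here. In bulk RNA, fewer cells of a type and less RNA per cell cannot be told apart.

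Homeobox genes give a second view of position, since posterior Hox genes are used at the tail end of the embryo and in the hindgut and limbs. Of 40 listed genes with Hox symbols, antisense genes included, 19 were expressed. Hoxc10 led at 20.4, 20.9 and 25.3 FPKM, followed by Hoxd13 at 16.0, 17.6 and 18.5 FPKM, Hoxa7 at 11.1, 10.3 and 12.7 FPKM, Hoxc11 at 10.52, 10.8 and 11.6 FPKM and Hoxa10 at 10.3, 10.7 and 10.3 FPKM. The last 3 overlapped. Hoxb13 stood at 2.86, 3.51 and 3.47 FPKM and Hoxa13 at 2.07, 2.12 and 1.97 FPKM. Reads of a Hox gene and its antisense partner cannot be told apart without strand, which is not given.

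The promoters of members of the epithelial and mesenchymal lists were read from RefSeq windows of 300 bases on mouse GRCm38.p6, 250 before and 50 after the start. That build is not the GRCm39 of the count table, so genes were matched by symbol and the coordinates are those of GRCm38.p6. Promoters of 4 genes follow, 5′ to 3′ on the gene's strand, since they carry the E-box contrast between the lists. Capitals mark CAGGTG or, for the other strand, CACCTG, an E-box that Snai and Zeb factors bind.
Epcam, chr17:87635729-87636028, plus strand: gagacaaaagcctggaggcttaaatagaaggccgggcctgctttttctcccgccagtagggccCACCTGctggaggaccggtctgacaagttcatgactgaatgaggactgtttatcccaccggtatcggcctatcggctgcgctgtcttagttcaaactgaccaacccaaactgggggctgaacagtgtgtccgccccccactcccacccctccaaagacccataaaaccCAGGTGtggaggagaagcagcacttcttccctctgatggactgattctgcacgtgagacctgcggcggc
Krt8, chr15:102004293-102004592, minus strand: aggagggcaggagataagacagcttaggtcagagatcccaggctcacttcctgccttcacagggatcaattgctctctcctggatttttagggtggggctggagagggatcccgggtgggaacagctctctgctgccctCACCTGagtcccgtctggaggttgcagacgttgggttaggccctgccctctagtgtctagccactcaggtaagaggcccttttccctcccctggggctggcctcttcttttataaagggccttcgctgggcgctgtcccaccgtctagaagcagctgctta
Krt18, chr15:102027966-102028265, plus strand: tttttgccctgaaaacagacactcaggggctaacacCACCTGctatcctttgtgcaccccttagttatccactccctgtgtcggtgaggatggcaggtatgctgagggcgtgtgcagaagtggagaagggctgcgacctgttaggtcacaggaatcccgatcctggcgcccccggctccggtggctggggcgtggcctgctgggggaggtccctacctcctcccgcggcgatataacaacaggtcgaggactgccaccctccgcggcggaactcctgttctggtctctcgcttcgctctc
Vim, chr2:13574061-13574360, plus strand: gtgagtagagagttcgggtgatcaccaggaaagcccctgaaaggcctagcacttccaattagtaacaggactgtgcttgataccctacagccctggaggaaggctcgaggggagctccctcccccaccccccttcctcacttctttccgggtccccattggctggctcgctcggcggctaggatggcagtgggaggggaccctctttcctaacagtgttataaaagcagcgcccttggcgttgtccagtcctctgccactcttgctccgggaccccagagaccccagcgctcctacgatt
The Epcam window held 2 such E-boxes, the Krt8 and Krt18 windows 1 each and the Vim window 0.

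Over the whole lists, 11 of 14 epithelial genes with a single window held at least 1 E-box of this form, and 2 of 15 mesenchymal genes did. The 11 were Epcam, Krt7, Krt8, Krt18, Cldn3, Cldn4, Elf3, Spint2, Rab25, Dsp and Ap1m2, and the largest number in a window was 4, in Ap1m2. The 2 mesenchymal genes were Snai1 and Sparc, both expressed. The other mesenchymal windows held 0, including those of Acta2, Cnn1, Col1a2 and Tgfbi, which lay below 1 FPKM. Within this list an E-box therefore did not go with a low level. Among 10483 listed protein_coding genes with a single window the share was 18.4%. It ran from 28.9% of 547 genes with 0 counts, through 23.7% under 0.1 FPKM, 20.8% at 0.1 to 1, 17.2% at 1 to 10 and 13.4% at 10 to 100, to 9.32% of 236 genes at 100 FPKM or more. The epithelial share lay above that of the listed genes with 0 counts too, but the sets are unlike. The 14 epithelial windows include genes not listed in the table, Epcam, Ovol2 and Ap1m2 among them. Genes with 0 counts here are listed only where the other libraries of the table held counts. The lists were known when the motif was chosen, the windows of Cdh1, Zeb1 and Col1a1 were not used, and a match in these letters is not a measured binding site.

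CpG content also changed with level. A window with at least 10 CpG dinucleotides was found for 35.1% of genes with 0 counts, 40.0% under 0.1 FPKM, 52.0% at 0.1 to 1, 86.5% at 1 to 10, 93.5% at 10 to 100 and 91.9% at 100 or more. In these FPKM classes the largest step lay between genes below and above 1 FPKM. In classes of TPM the share was 40.9% at 0.1 to 1, 69.7% at 1 to 10 and 91.4% at 10 to 100. The place of the step thus depended on the unit. The letters TATAAA, on either strand, were found in 17.2% of windows of silent genes, 5.96% at 1 to 10 FPKM, 5.81% at 10 to 100 and 13.6% at 100 or more, against 9.30% of all windows. The share was therefore higher at the ends of the range than in its middle. Of the 14 epithelial windows 10 had at least 10 CpG, with a median of 15.5.

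The most abundant transcripts were mitochondrial, and the highest nuclear ones included many of translation beside genes of other kinds. The 13 mitochondrially encoded genes held 3.98%, 3.79% and 5.85% of all counts in shControl 1, 2 and 3. The highest gene was mt-Cytb, a subunit of respiratory complex III, at 10893, 10602 and 15737 FPKM. The next was mt-Co1, a subunit of cytochrome oxidase, at 7425, 7046 and 10174 FPKM. In both genes shControl 3 lay above the other libraries, which were close to each other. Far lower were mt-Co3 at 27.3, 24.4 and 43.1 FPKM and mt-Nd3 at 21.0, 16.9 and 143 FPKM. Near-identical copies of mitochondrial genes in nuclear chromosomes make the split of their reads uncertain.

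Eef1a1, the translation elongation factor that brings aminoacyl-tRNA to the ribosome (ENSMUSG00000037742, chromosome 9, 78385731 to 78396433), was the highest nuclear gene at 3665, 3705 and 3435 FPKM. Lgals1, the galactoside-binding galectin-1, was next at 1755, 1750 and 1322 FPKM. Pgk1, a glycolytic kinase, stood at 1480, 1499 and 1020 FPKM. Eef1a1 was apart from all others in every library, while Lgals1 in shControl 3 lay below Pgk1 in the other libraries. The chaperone gene Hsp90ab1 (1164 ± 36.4 FPKM), the ribosomal stalk gene Rplp0 (1162 ± 81.5) and Ptma, prothymosin alpha (1147 ± 16.1), followed and differed by less than their spread.

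The remaining places among the 20 highest went to Ftl1, ferritin light chain (1124 ± 212 FPKM), B2m, the light chain of MHC class I (1091 ± 164), Npm1, nucleophosmin (837 ± 18.03), the chaperone gene Hspa8 (822 ± 18.2), Actb, beta-actin (725 ± 64.8), the glycolytic gene Pkm (697 ± 28.2) and ribosomal protein genes. In all, 9 of the 20 encode ribosomal proteins: Rplp0, Rps4x, Rps3a1, Rpl19, Rps15, Rpl4, Rpl41, Rplp1 and Rps2. Of the 20 genes, 14 were lowest and 6 highest in shControl 3 after scaling. B2m was one of the 6, at 1002, 991 and 1280 FPKM. Ribosomal protein genes have many near-identical pseudogenes, so the split of their reads is uncertain.

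**Figure D2:**
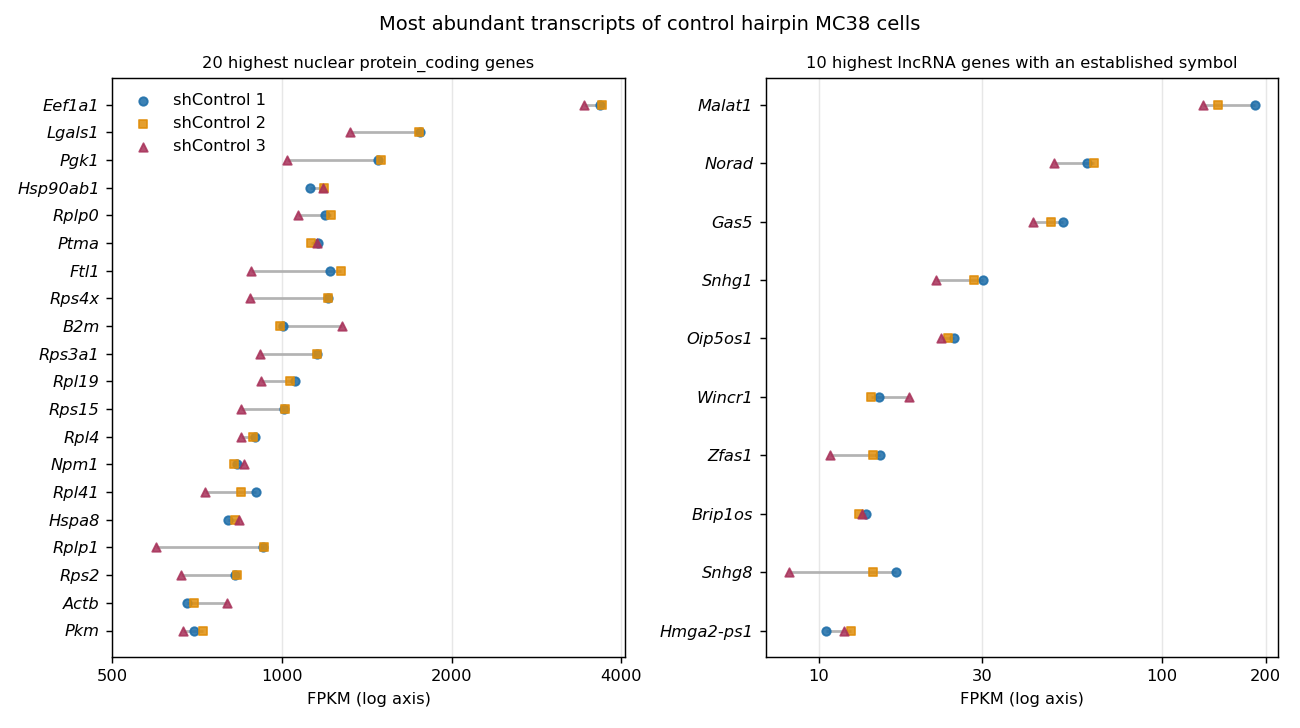
FPKM (log axis) of the 20 highest nuclear protein_coding genes and the 10 highest lncRNA genes with an established symbol, 1 marker per control library, with grey lines from the lowest to the highest. Eef1a1 stands apart at 3435 to 3705 FPKM and Malat1 at 132 to 186 FPKM, and shControl 3 lies at the low end for most genes.

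Counts were spread over many genes. The 10 genes with the most counts held 5.95%, 5.87% and 7.59% of each library, the 100 highest 18.2%, 18.2% and 19.4%, and the 1000 highest 49.7%, 49.8% and 50.6%. Among expressed protein_coding genes the median was 9.67 FPKM, with 2.34 at the lowest decile and 45.0 at the highest. At 100 FPKM or more stood 347 protein_coding genes, with 4488 at 10 to 100, 5230 at 1 to 10, 1923 at 0.1 to 1 and 4960 below 0.1. Fewer genes lay at 0.1 to 1 FPKM than in the classes on either side of it.

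Not every gene used as a reference was high. Gapdh, a glycolytic gene with many pseudogene copies, stood at 47.6, 68.0 and 56.0 FPKM, although its pathway neighbours Pgk1 and Pkm were among the 20 highest. How reads shared by Gapdh and its copies were counted is not given. Ppia stood at 524, 454 and 431 FPKM, Tubb5 at 437, 458 and 452 FPKM, Hprt at 195, 194 and 167 FPKM and Tbp at 3.35, 3.11 and 3.61 FPKM. Across libraries the CV of scaled CPM was 2.98% for Eef1a1, 3.01% for Gusb and 3.02% for Sdha, and was largest for Pgk1 (19.4%), Gapdh (18.04%) and B2m (16.3%). In the order of levels of the 16 reference genes, 11 of the 15 neighbouring pairs did not overlap.

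Acsl4, the target of the other hairpin and an enzyme that joins long polyunsaturated fatty acids to coenzyme A (ENSMUSG00000031278, chromosome X, 141100989 to 141173531), stood at 35.6, 35.9 and 37.0 FPKM. Its relative Acsl3 stood at 47.5, 46.7 and 51.3 FPKM, Acsl5 at 12.2, 12.7 and 11.5 FPKM and Acsl1 at 2.62, 2.68 and 2.81 FPKM, none of them overlapping with Acsl4. Acsl6 had 2, 0 and 10 counts.

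Long non-coding RNAs held 0.958%, 0.897% and 0.870% of counts. Malat1, a nuclear speckle RNA (ENSMUSG00000092341, chromosome 19, 5845717 to 5852704), was the highest with an established symbol at 186, 146 and 132 FPKM, and ranked 3 among all lncRNA genes by mean FPKM. Norad, which binds Pumilio proteins, stood at 60.4, 63.5 and 48.5 FPKM, and Gas5, a host of small nucleolar RNAs, at 51.3, 47.6 and 42.0 FPKM. Malat1 was apart from both, and Norad and Gas5 overlapped. The small nucleolar RNA hosts Snhg1 (26.8 ± 4.35 FPKM), Zfas1 (13.4 ± 2.30) and Snhg8 (13.1 ± 4.42) were also among the 10 highest with an established symbol, with Oip5os1 (23.8 ± 1.04), Wincr1 (15.8 ± 2.23), Brip1os (13.4 ± 0.330) and Hmga2-ps1 (11.6 ± 0.974). Oip5os1 and Brip1os are named as antisense or neighbouring transcripts, and without strand their reads cannot be told apart from those of overlapping genes. Of the 410 expressed lncRNA genes, 352 (85.9%) had only clone or predicted-model symbols, and 19 of these lay above the last gene named.

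Receptors were read from 9 lists of families, and 101 of 258 listed receptors (39.1%) were expressed, against 58.4% of all listed protein_coding genes. Among receptor tyrosine kinases 23 of 52 listed were expressed. Axl, a receptor for the ligand Gas6 (chromosome 7, 25456698 to 25488130), was the highest at 99.7, 98.7 and 112 FPKM. Ddr2, which binds fibrillar collagen, stood at 64.1, 62.1 and 62.9 FPKM. Neither overlapped with the next receptor in the order.

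Ryk (27.7 ± 1.61 FPKM), a Wnt co-receptor, Epha2 (27.2 ± 2.07), an ephrin receptor, and Met (27.2 ± 1.23), the hepatocyte growth factor receptor, could not be ordered. Fgfr1 (17.4 FPKM) and Ephb4 (16.5) overlapped as well. Of the EGF receptor family, Egfr stood at 1.11, 1.19 and 1.42 FPKM, Erbb2 at 10.1, 10.96 and 11.2 FPKM and Erbb3 at 7.07, 7.46 and 8.16 FPKM, while Erbb4 had 0, 2 and 0 counts. Egfr was thus the lowest of the 3 expressed members in every library. Ddr1, the collagen receptor of epithelia, stood at 4.53 ± 0.180 FPKM, below Ddr2 in every library. Kit had 0, 1 and 0 counts, and 8 receptor tyrosine kinases had 0 in all 3 libraries, Fgfr4 and Ntrk2 among them.

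TGF-beta family receptors were expressed in 8 of 14 cases. Tgfbr3, the betaglycan co-receptor, stood at 30.2, 30.3 and 33.1 FPKM and the BMP receptor Bmpr1a at 31.4, 30.2 and 30.6 FPKM, with overlapping ranges. Acvr1 (11.98 ± 0.242 FPKM), Tgfbr2 (9.82 ± 0.294) and Bmpr2 (9.48 ± 0.839) followed, and Tgfbr1 stood at 8.26 ± 0.352 FPKM. Both chains of the TGF-beta signalling receptor were therefore expressed. For Wnt, Notch and Hedgehog, 12 of 20 listed were expressed: Smo, the Hedgehog signal transducer, led at 31.7, 33.2 and 30.8 FPKM, followed by the Wnt co-receptors Lrp5 (12.1 ± 0.563) and Lrp6 (10.4 ± 0.488), Fzd2 (9.43 ± 0.391) and Lgr4. Notch2 (5.41 ± 0.124 FPKM) was the only Notch receptor that passed the rule. Notch1 stood at 0.521, 0.591 and 0.520 FPKM, and Notch3 had 0, 1 and 2 counts.

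Among interferon and interleukin receptors 18 of 50 listed were expressed. Il1rl1, the receptor for interleukin 33, was the highest at 56.5, 52.7 and 65.8 FPKM, with shControl 3 the highest library. Il13ra1, a chain for interleukin 13, stood at 25.4, 24.5 and 24.7 FPKM, apart from both neighbours. Ifngr1 (22.6, 22.4 and 19.6 FPKM) and Il6st, the gp130 chain shared by the interleukin 6 family (18.5, 18.4 and 20.3 FPKM), overlapped. The type I interferon receptor chains differed, with Ifnar1 at 14.2 ± 0.502 FPKM and Ifnar2 at 3.08 ± 0.322 FPKM, and Ifngr2 stood at 14.05 ± 0.199 FPKM. Ifnlr1, the chain for type III interferon that epithelia use, had 2, 0 and 0 counts.

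In the TNF receptor superfamily 8 of 22 listed were expressed. Tnfrsf12a, the receptor for TWEAK, led at 82.1, 75.9 and 70.5 FPKM, followed by Ltbr, the lymphotoxin beta receptor, at 30.6, 28.7 and 33.3 FPKM and Tnfrsf1a at 26.6, 26.5 and 24.3 FPKM. Tnfrsf1b (9.78 ± 0.507 FPKM) and the ectodysplasin A2 receptor gene Eda2r (6.60 ± 0.885) completed the highest 5. Only 1 of the 7 neighbouring pairs overlapped. Fas, a death receptor, stood at 0.429, 0.190 and 0.231 FPKM, while Tnfrsf10b, the mouse TRAIL death receptor, stood at 5.28, 5.02 and 5.50 FPKM.

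Receptors of leukocyte traffic and sensing were sparse. Of 17 listed chemokine receptors 2 were expressed, both near the limit: Ccr10 at 1.86, 1.86 and 1.74 FPKM and the scavenging receptor Ackr3 at 1.11, 1.01 and 1.25 FPKM. Cxcr4 had 2 counts in each library, and Ccr2 and Ackr2 had 0. Of 10 listed Toll-like receptors 2 were expressed, Tlr4, the lipopolysaccharide receptor, at 6.75, 6.59 and 6.17 FPKM and Tlr3, for double-stranded RNA, at 3.55, 3.40 and 4.54 FPKM.

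Among prostanoid, lysolipid, purine and protease receptors 7 of 29 listed were expressed. Lpar1, a lysophosphatidic acid receptor, stood at 31.3, 33.2 and 37.4 FPKM and F2r, the thrombin receptor, at 32.1, 31.1 and 32.6 FPKM, with overlapping ranges. The sphingosine 1-phosphate receptor S1pr2 (7.71 ± 0.343 FPKM), the ATP-gated channel P2rx4 (3.84 ± 0.179) and the adenosine receptor Adora2b (2.07 ± 0.600) were lower. None of the listed prostaglandin E2 receptors passed the rule, with Ptger4 at 0.151, 0.0588 and 0.0858 FPKM.

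Nuclear receptors were flat in level: 21 of 44 listed were expressed, and 16 of the 20 neighbouring pairs overlapped. The highest were Esrra, an estrogen-related receptor (17.99, 17.3 and 13.3 FPKM), the glucocorticoid receptor Nr3c1 (15.3, 15.7 and 14.99 FPKM), the retinoic acid receptor Rarg (13.8 ± 1.54), the clock repressor Nr1d2 (13.1 ± 0.277) and the oxysterol receptor Nr1h2 (12.9 ± 0.660). Hnf4a and Nr1h4, the bile acid receptor, had 0 counts, and Pparg had 1, 1 and 0.

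**Figure D3:**
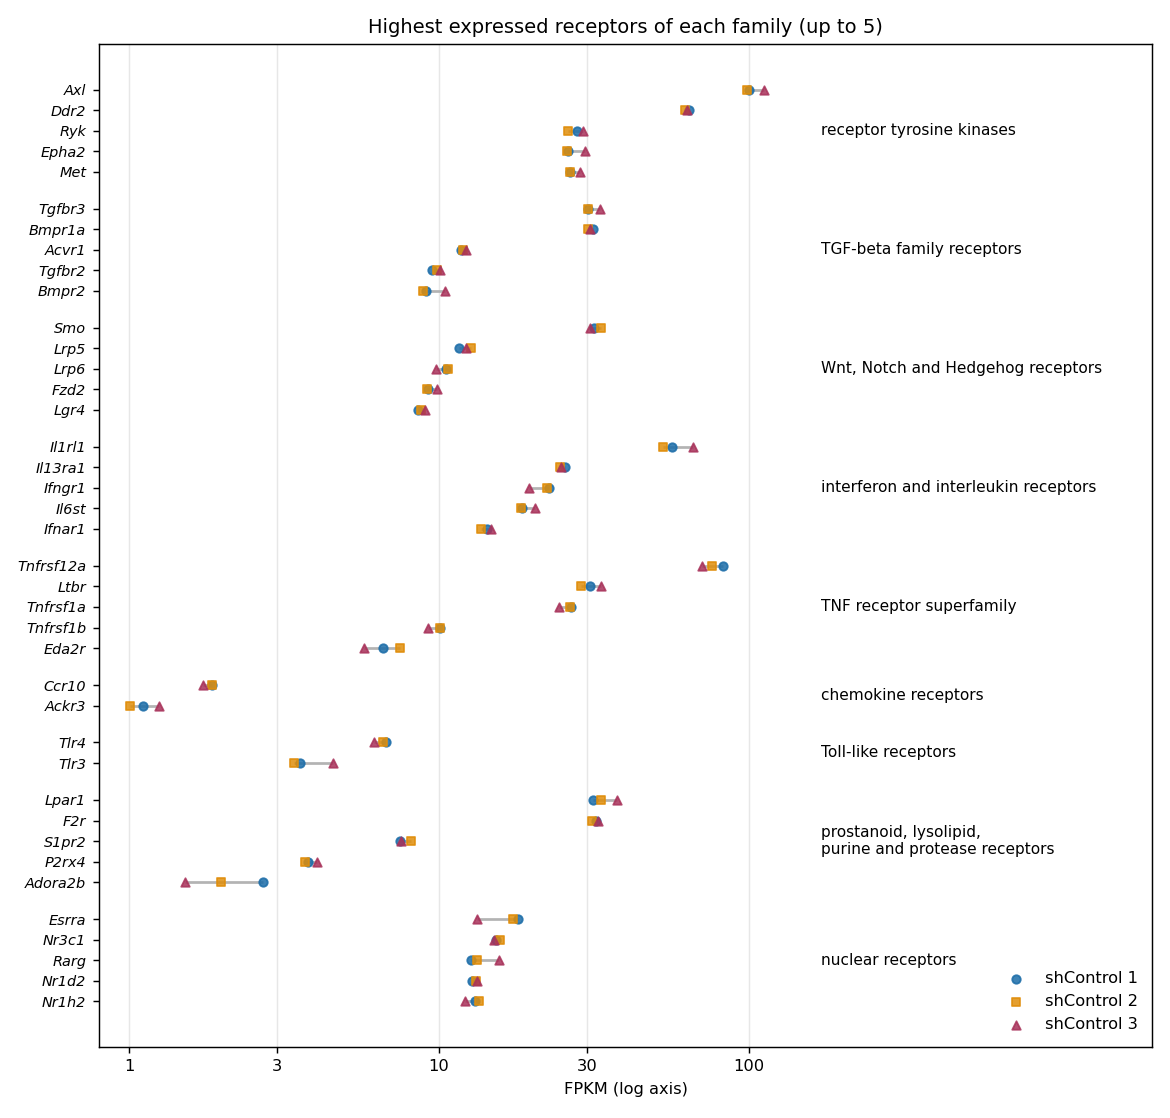
FPKM (log axis) of up to 5 expressed receptors with the highest mean in each of 9 families, 1 marker per control library, with grey lines from the lowest to the highest library. Axl at 98.7 to 112 FPKM, Tnfrsf12a, Ddr2 and Il1rl1 stand highest, and chemokine and Toll-like receptors all lie below 10 FPKM.

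All 16 proliferation genes were expressed. Rrm2, a subunit of ribonucleotide reductase, stood at 174, 172 and 162 FPKM, Top2a, a topoisomerase of dividing cells, at 118, 117 and 119 FPKM, Pcna, the replication clamp, at 103, 105 and 92.2 FPKM and Mki67, the Ki-67 antigen, at 83.7, 81.2 and 108 FPKM. Bub1, a spindle checkpoint kinase, stood at 68.9 ± 1.48 FPKM. Of 30 oncogenes and tumour suppressors 27 were expressed, led by Ccnd1, cyclin D1 (85.3, 91.4 and 92.2 FPKM), Ctnnb1, beta-catenin (49.96, 50.5 and 44.8), Myc (42.4, 44.2 and 58.6), the mismatch repair gene Msh6 (43.3, 45.5 and 43.1) and Trp53 (36.4, 37.5 and 40.0). Mycn, Mycl and Tert were below 1 FPKM. Ctnnb1, Myc and Msh6 overlapped in turn, with Myc highest in shControl 3.

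Interferon-stimulated genes were expressed in 23 of 29 cases, with no interferon treatment given in the labels and with a median of 3.27 FPKM over the list. Bst2, tetherin, stood at 61.0, 58.0 and 55.1 FPKM, Isg15 at 23.1, 22.4 and 21.6, the transcription factor Irf1 at 19.7, 20.3 and 17.5, the immunoproteasome gene Psmb8 at 15.8, 14.8 and 10.9 and Gbp2 at 12.5, 11.8 and 13.2. Of the 22 neighbouring pairs 17 overlapped. Over the 28 members at 1 CPM or more, the median log2 ratio to the other libraries was -0.19 in shControl 2. In shControl 3 it was 0.18. The median CV of the list was 14.9%, against 6.78% for all protein_coding genes. That comparison is not matched for level. Over all genes the median CV was 14.3% at 1 to 10 CPM and 6.35% at 10 to 100 CPM.

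Xist, the RNA that coats the inactive X chromosome of female cells, had 17, 19 and 21 counts (0.0227, 0.0259 and 0.0278 FPKM), and the Y-linked genes Ddx3y, Kdm5d, Eif2s3y and Uty were not listed in the table. Their X-linked partners Ddx3x and Eif2s3x stood at 126 ± 3.14 and 103 ± 3.93 FPKM.

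Silent genes are those with 0 counts in all 3 libraries. There were 920 among protein_coding genes (5.43%) and 733 among lncRNA genes (13.5%), but a gene with no counts at all would not be listed, so these numbers depend on the other 3 libraries and are lower bounds on what was silent. Each library alone had 3833, 4166 and 4029 listed genes at 0. Families of sensory and defence genes accounted for many low genes. None of 185 listed olfactory receptors and 76 vomeronasal receptors was expressed, with 49 and 28 at 0 counts. None of 22 listed keratins and keratin-associated proteins was expressed, and of 10 listed defensins 6 had 0 counts and 1, Defb41, stood at 6.04, 6.89 and 4.56 FPKM.

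By chromosome, the share of listed protein_coding genes expressed ran from 52.0% on chromosomes 7 and X to 64.8% on chromosome 8. Replication-dependent histone genes were low although every proliferation gene was expressed. Of 63 listed, 14 passed the rule, led by H4c9 at 21.6, 23.7 and 13.3 FPKM. Their messages have no poly(A) tail, but the libraries are described as total RNA depleted of ribosomal RNA and primed with random hexamers. The cause of the low level was not tested. All 63 together held 0.00695%, 0.00706% and 0.00566% of counts, and near-identical copies make the split of their reads uncertain.

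The 3 libraries were close to each other, with shControl 3 the one that stood apart. For spread, counts were scaled to CPM with TMM factors, which compares a gene with itself and needs no length. Over the 11766 genes averaging 1 CPM or more the median CV was 7.09%, where counting alone gives 2.61% if each count is a separate observation. Small counts were even in 63.1% to 65.9% of genes with 1 to 10 counts, with 1330 genes at 2 counts and 584 at 1 in shControl 1, so counts often came in pairs. Allowing for pairs, counting alone gives 3.70%, and 9025 of the 11766 genes (76.7%) still lay above their own value. The common biological coefficient of variation was 9.29%.

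The median CV was 14.3% at 1 to 10 CPM, 6.35% at 10 to 100, 4.92% at 100 to 1000 and 6.29% for the 78 genes above 1000 CPM, so it rose again at the top. The median absolute log2 difference was 0.0736 between shControl 1 and 2, 0.137 between 1 and 3 and 0.143 between 2 and 3. Without shControl 3 the common coefficient fell from 9.29% to 5.05%. Of the 11766 genes, shControl 3 was over 1.5-fold higher than the geometric mean of the others for 115 and lower for 244, against 90 and 82 for shControl 1 and 84 and 116 for shControl 2.

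**Figure D4:**
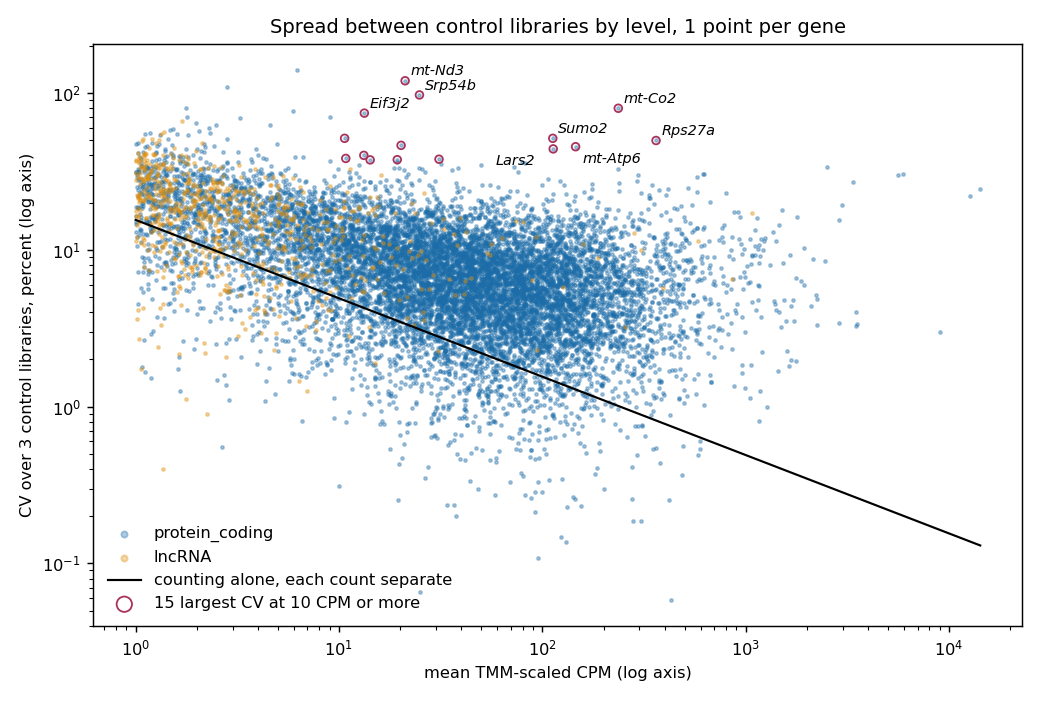
CV over the 3 control libraries (percent, log axis) against mean TMM-scaled CPM (log axis), 1 point per gene with at least 1 CPM, protein_coding in blue and lncRNA in orange. The black line is counting alone with each count separate; most genes lie above it, and circles mark the 15 largest CV among genes of at least 10 CPM, from mt-Nd3 at 120% down.

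What set shControl 3 apart was led by 2 groups. All 13 mitochondrially encoded genes were highest in shControl 3, with a median of 0.72 on the log2 scale over the geometric mean of the other libraries. Of 81 cytosolic ribosomal protein genes with at least 1 CPM 74 were lowest in shControl 3, against 4713 of all 11766 genes, with a median of -0.37. Ribosomal protein genes held 4.49%, 4.51% and 3.53% of counts. Hosts of small nucleolar RNAs had a median of -0.27 in shControl 3 (13 of 15 lowest) and proteasome subunits -0.15 (27 of 38 lowest). All protein_coding genes had a median of 0.01.

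Length moved with the same difference. The 1177 shortest genes, up to 1780 bases, had a median log2 of -0.14 in shControl 3 over the others, and the 1177 longest, from 10064 bases, had 0.07, with every bin between them in order. Without ribosomal protein and mitochondrial genes the shortest bin stood at -0.13. In shControl 1 and 2 the ends had the opposite signs, with 0.07 and 0.06 in the shortest genes and -0.03 and -0.05 in the longest. Each ratio is taken against the other libraries, so the 3 are not independent. The part of gene length in the ribosomal protein, proteasome and mitochondrial differences, and their cause, was not tested.

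**Figure D5:**
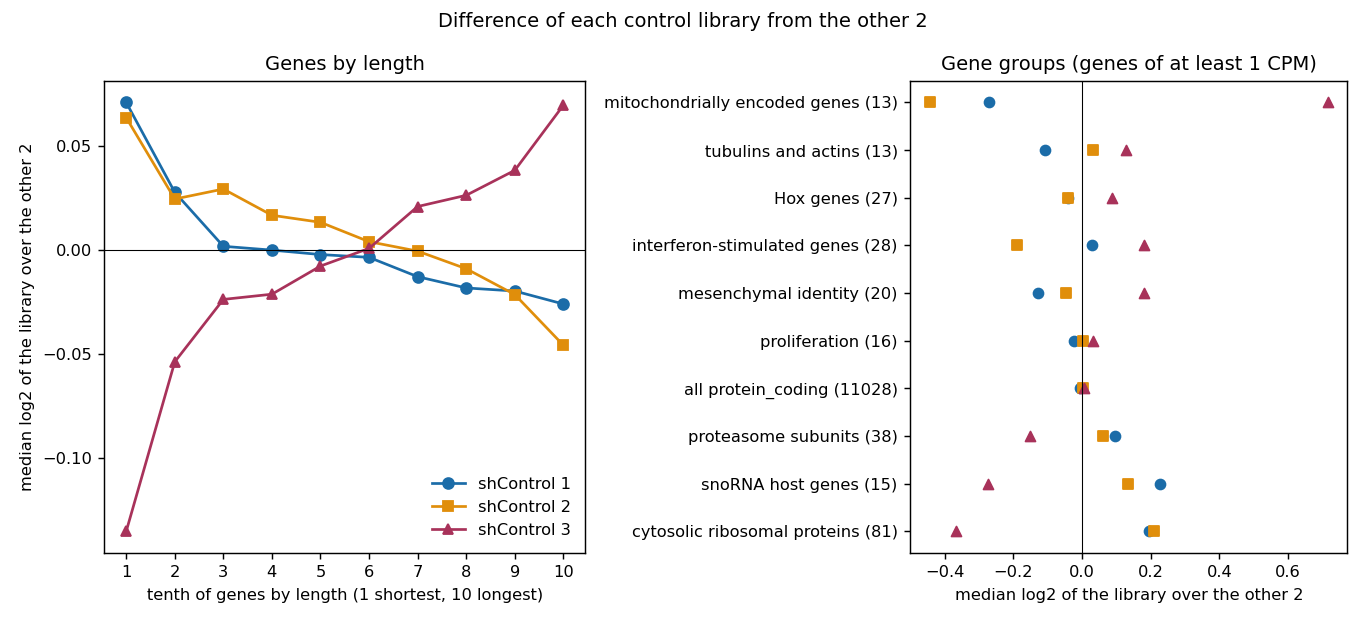
Median log2 ratio of each control library to the geometric mean of the other 2 (TMM-scaled CPM, genes of at least 1 CPM), in 10 bins of gene length (left) and by gene group with its number of genes (right). shControl 3 runs from -0.14 in the shortest genes to 0.07 in the longest, and stands at 0.72 for mitochondrially encoded and -0.37 for ribosomal protein genes.

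Single genes with a large spread included mitochondrial genes and genes with near-identical relatives. Among 9017 genes with at least 10 CPM, where the median CV was 5.95%, the 15 largest CV ran from 37.4% to 120%. The largest was mt-Nd3, a subunit of complex I, at 7.22, 5.87 and 50.3 CPM. Srp54b, a signal recognition particle gene with near-identical copies Srp54a and Srp54c, stood at 50.8, 3.05 and 20.7 CPM, and mt-Co2 at 160, 97.6 and 451 CPM. Both mitochondrial genes were highest in shControl 3, whereas Srp54b was lowest in shControl 2. Its copies stood at 6.01, 4.92 and 2.92 CPM (Srp54a) and at 23.8, 27.8 and 21.2 CPM (Srp54c). From shControl 1 to shControl 2, Srp54b fell by far more CPM than Srp54c rose, and Srp54a fell as well. The part of shared reads in these differences was not tested.

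Eif3j2, which has the close copy Eif3j1, stood at 6.68, 24.7 and 8.58 CPM, and Eif3j1 at 173, 150 and 207 CPM, so the pair moved in opposite directions in shControl 2. Sumo2 stood at 171, 55.8 and 110 CPM, Rps27a at 209, 561 and 317 CPM and Rps27rt at 19.5, 29.9 and 11.2 CPM. Each has near-identical copies, and how shared reads were assigned is not given. The rest were mt-Nd4l, mt-Atp6, Lars2 (165, 109 and 65.4 CPM), Atox1 (40.9, 34.2 and 18.1 CPM), Gmppb, Rpl22l1 and the interferon-inducible genes Rtp4 (12.6, 8.31 and 18.8 CPM) and Cxcl10 (12.1, 10.3 and 20.3 CPM). Rtp4 and Cxcl10 were both lowest in shControl 2 and highest in shControl 3.

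At the other end, the 10 smallest CV ran from 0.0586% to 0.230%. Rlim, a ubiquitin ligase gene on the X chromosome, stood at 429.5, 429.0 and 429.1 CPM. Stk4, a kinase of the Hippo pathway, stood at 95.7, 95.5 and 95.7 CPM, and Sf3b3, a splicing factor, at 305.4, 304.9 and 306.1 CPM. With Nsun3, Heatr5a, Mark3, Usp47, Tbx3, Suclg1 and Sdf4, these had a CV below their counting CV of 0.748% to 3.10%. The smallest of 9017 values from 3 libraries lie below the counting error, so these are not shown to be steadier than other genes.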

How the data were processed

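RNA-seq of 6 libraries was deposited, and the 3 control libraries were used. Per the submitters' processing notes, CASAVA, HISAT2 and DESeq2 were used with the GRCm39 build. Versions, the counting program, the annotation release, strandedness and the gene length behind FPKM are not given in the sources used here. The lengths used for the length bins were worked back from each gene's counts and FPKM. Raw read counts and FPKM per gene are as the authors deposited them, per the file headers. The log2 fold change and p-value that the authors deposited compare both hairpins and were not used.

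Expressed, silent and level classes were counted from FPKM and counts. Spread was computed on CPM scaled with TMM factors from the 3 libraries (edgeR 4.0.16, R 4.3.3), with an intercept-only dispersion fit, tested on simulated data. DESeq2 1.42.0 gave alternative size factors. Log2 ratios used a pseudocount of 0.1 CPM. Library totals are given with the results, and the floor was 3 counts per library. No test between groups was made.

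Named were the 20 nuclear protein_coding and 10 lncRNA genes with the highest mean FPKM, up to 5 members per list, defining markers, the 15 largest and 10 smallest CV at 10 CPM or more, Acsl4 and reference genes. Predicted-model symbols were passed over. Other low list members and family members were named after their values were seen. Members and lists were chosen with earlier results of these data known. Promoters come from RefSeq (GRCm38.p6), matched by symbol for 10483 of 16948 protein_coding genes. Alternatives were other thresholds, TPM, scalings and filters, and each library left out. Some list members are not reported here.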

Additional observations from a re-analysis of the deposited data

How the results depend on the processing

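The count of expressed protein_coding genes stayed between 9006 and 11854, that of mesenchymal members between 20 and 23, and that of receptors between 77 and 143 under every alternative rule. The count of expressed lncRNA genes did not hold: it was 710 at 0.5 FPKM, 196 at 2 FPKM, 1057 at 1 TPM and 1364 at 10 counts in every library. Expressed epithelial members were 0 at 2 FPKM, 3 at 1 TPM and 5 at 10 counts. Silent genes numbered 2083 protein_coding and 1740 lncRNA when up to 3 counts over the libraries were allowed, and 1381 to 1419 and 1029 to 1186 with a library left out, since fewer libraries leave fewer chances of a count. The common biological coefficient of variation ran from 5.05% (without shControl 3) to 11.1% with a library left out, and from 8.39% to 9.87% under other scalings and filters. The signs of the shControl 3 differences in ribosomal protein, mitochondrial and short genes held under every scaling and filter tried. The 20 highest genes shared 19 or 20 members with those found by TPM or with a library left out. No paired analysis was possible because only 1 group is described and nothing is compared between groups. Depth limits the epithelial genes: 22 of the 27 listed had fewer than 10 counts in at least 1 library.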
